A study of Homo sapiens with 30 samples.

Results

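KLF6 and 9 other Krüppel-like factor genes (KLF2, KLF3, KLF4, KLF5, KLF9, KLF10, KLF11, KLF13 and KLF16) were followed in 22Rv1, an established human prostate carcinoma line that grows without androgen, while the kinase CDK9 was inhibited. They are 10 of the 22340 genes of the table. For each gene the transcript whose CPM summed highest was used. The genes were selected on earlier results of the same libraries, among them measured values of KLF6. Its level with KI-ARv-03 against DMSO at 2 h and its conversion with DMSO against 0 h had already been seen. The KLF6 values of those comparisons, and of others that use its value with KI-ARv-03 at 2 h, are therefore given as a description, with no test.

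RNA was measured by SLAM-seq, in which cells take up the uridine analogue s4U, and RNA made since then yields reads with T-to-C conversions. All cells first had 800 µM s4U for 30 min. The 30 libraries are in 10 groups of 3. KB742 was given at 1.2 µM for 2, 4 or 8 h, and KI-ARv-03 at 4 µM for the same times. DMSO, the solvent, was given for 2, 4 or 8 h, and the 0 h group was collected at the end of the first labelling, before the medium was changed. The medium of every later group still held 800 µM s4U, so labelling went on under each treatment. KB742 and KI-ARv-03 are inhibitors of CDK9, the kinase that releases paused RNA polymerase II into productive elongation. Their doses differ, so each result is of a compound at its dose. Nothing in the labels says that the 3 libraries of a group came from separate cultures, and p-values then measure only the spread between these libraries. For 8 of the 9 samples titled 4 h another label field names another time, and the title was followed. The KB742 dose in that field also differs from the protocol, and 1.2 µM, as in the titles, was used. Treatment protocol and description name DMSO for all samples, so the groups were read from the titles.

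Krüppel-like factors bind GC-rich and CACCC sequences through zinc fingers at their carboxyl end, and their amino ends decide whether a target is switched on or off. KLF2, KLF4, KLF5 and KLF6 are mainly activators that recruit the acetyltransferases p300 and CBP, KLF3 is a repressor that binds CtBP, and KLF9, KLF10, KLF11, KLF13 and KLF16 recruit the corepressor SIN3A. Several of these genes are switched on quickly by growth factors or TGF-β. KLF6 is known in the prostate as a growth suppressor that can raise CDKN1A, and KLF5 as a factor of epithelial proliferation. Levels below are in CPM, the deposited read scale after rescaling between libraries, and the conversion level is the value deposited for each transcript, given in percent. Where a compound is set against DMSO of the same time, fell means lower than DMSO and not a decline over time. A level is a proportion of what a library holds, so fewer copies per cell and fewer of the cells that express a gene cannot be told apart. After rescaling, the median log2 difference of all tested genes from DMSO was -0.03 to 0.04 over compounds and times. Spike-ins were not used, so a change in total RNA per cell would not show. A gene called higher, lower or not at all is so relative to the other genes.

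The deposited CPM scale corresponded to 3376884 to 9265131 reads per library. Reads on the transcripts used here, 1 per gene, were 1414890 to 3968775 per library, and 11667 to 14337 genes were detected in each. The luminal prostate markers KLK3, HOXB13 and KRT8 had reads in all 30 libraries, at 6.03 to 36.4 CPM for KLK3, 57.4 to 264 CPM for HOXB13 and 75.2 to 289 CPM for KRT8. Markers of basal, endothelial and immune cells summed to at most 1.26 CPM, and stromal markers to 0.521 to 24.0 CPM. Libraries that stood apart from the rest of their group were 0 h replicate 3 and KB742 2 h replicate 2, by their rank correlation with the others, and KI-ARv-03 4 h replicate 1, by its mean conversion of 1.18%, against 0.383% and 0.422% in the other two. Each call given for a KLF gene kept its direction and its side of the threshold without them.

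The promoter sequences of KLF6, KLF9 and KLF16 are shown because these genes span the range of labelling described below, with KLF6 the most and KLF16 the least converted of the 3 with a value in at least 2 libraries at 4 h with DMSO. They are from RefSeq on GRCh38.p14, run from 250 bases before to 50 after the listed start, and are read 5′ to 3′ on the minus strand, on which all 3 genes lie. Capitals mark GC boxes, the letters GGGCGG on either strand, which SP and KLF proteins can bind.
KLF6 promoter, chr10:3785160-3785459, strand -: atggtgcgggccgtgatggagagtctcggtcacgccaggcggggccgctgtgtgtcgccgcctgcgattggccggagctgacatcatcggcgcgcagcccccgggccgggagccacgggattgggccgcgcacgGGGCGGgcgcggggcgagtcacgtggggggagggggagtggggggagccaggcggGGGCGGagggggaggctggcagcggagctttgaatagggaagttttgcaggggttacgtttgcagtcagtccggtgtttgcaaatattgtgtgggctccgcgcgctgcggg
KLF9 promoter, chr9:70414608-70414907, strand -: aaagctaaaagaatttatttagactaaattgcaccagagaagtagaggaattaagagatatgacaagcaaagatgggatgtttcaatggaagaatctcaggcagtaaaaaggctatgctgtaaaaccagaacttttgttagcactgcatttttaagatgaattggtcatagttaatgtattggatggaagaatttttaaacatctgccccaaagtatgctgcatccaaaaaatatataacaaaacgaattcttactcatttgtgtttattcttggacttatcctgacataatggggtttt
KLF16 promoter, chr19:1863530-1863829, strand -: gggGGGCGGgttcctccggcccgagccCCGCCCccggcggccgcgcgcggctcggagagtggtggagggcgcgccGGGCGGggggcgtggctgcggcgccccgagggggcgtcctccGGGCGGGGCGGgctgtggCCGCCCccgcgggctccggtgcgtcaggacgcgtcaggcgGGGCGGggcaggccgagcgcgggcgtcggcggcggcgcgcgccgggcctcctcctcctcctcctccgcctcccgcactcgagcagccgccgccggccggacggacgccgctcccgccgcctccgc
The KLF6 window was 70.7% G or C and held 2 GC boxes, the KLF16 window 86.0% with 7 GC boxes, and the KLF9 window 32.7% with none. Of all promoters of the same length in the table, 45.0% held a GC box, and of those of genes tested here 67.0%. Matches were counted on both strands, overlapping ones included. None of the 3 windows held a TATA box (TATAAA), found in 11.5% of all promoters, a cAMP response element (TGACGTCA), found in 1.85%, an AP-1 site (TGACTCA), found in 4.95%, or the letters CACCC, found in 59.9%. KLF3 and KLF10 had no entry in this table.

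Transcripts that turn over quickly often carry AU-rich elements near their 3′ end, and the heptamer TATTTAT is the core of one kind. It was found in the annotated 3′ ends of 5 of the 10 genes (KLF2, KLF5, KLF6, KLF11 and KLF16), against 31.0% of the 9450 tested genes with an annotated 3′ end. These 5 ends had 843, 1655, 3543, 2329 and 2060 bases, against a median of 986 over the tested genes. Longer ends have more room for a match, and the shares are not matched for length. The KLF6 and KLF11 sites are shown since these genes had the largest level differences of opposite sign between DMSO at 8 h and 0 h. Capitals mark the heptamer.
KLF6 site: atgtttctctTATTTATgccttgagga
KLF11 site: tttagaaaaaTATTTATattgttggtg
A match describes the letters of the window and is not evidence of a working element.

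KLF6 was the most abundantly read of the 10 genes, with 4346 reads over all libraries. It was the one gene of the list with every inhibitor library below every DMSO library at each of the 3 times. With KI-ARv-03 at 2 h these are values that helped to choose KLF6, so that part is a description only. At 2 h its level was 22.6, 24.7 and 28.9 CPM with KB742 and 12.4, 23.0 and 17.1 CPM with KI-ARv-03, against 59.2, 74.6 and 101 CPM with DMSO. At 4 h it was 32.3, 22.3 and 34.5 CPM with KB742 and 30.6, 34.3 and 36.2 CPM with KI-ARv-03, against 160.4, 95.3 and 69.5 CPM with DMSO. At 8 h it was 31.3, 25.1 and 51.9 CPM with KB742 and 46.2, 29.1 and 26.9 CPM with KI-ARv-03, against 153, 129.8 and 351 CPM with DMSO. The inhibitor and DMSO libraries did not overlap at any time, which with KI-ARv-03 at 2 h is bound up with the choice of the gene. The 0 h libraries, at 80.9, 63.3 and 54.4 CPM, also lay above all 18 libraries with an inhibitor. The share of all genes with this order was not computed, so it is not read as particular to KLF6.

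In log2 terms, KLF6 with KB742 differed from DMSO by -1.56 ± 0.35 (SE) at 2 h (limma, Benjamini-Hochberg adjusted p = 0.294 over 11409 genes), by -1.77 ± 0.35 at 4 h (limma adjusted p = 0.0348) and by -2.44 ± 0.35 at 8 h (limma adjusted p = 0.000253). It was thus lower than DMSO, past the adjusted threshold of 0.05, at 4 and 8 h. The DMSO libraries at 2 h were also part of the comparison that chose KLF6. The KB742 test at 2 h is therefore not independent of that choice. Of all tested genes, 0.0263%, 0.0789% and 0.596% were called lower in the KB742 groups, in order of time, and the share with all KB742 libraries below all DMSO libraries was 3.7%, 5.59% and 7.52%. With KI-ARv-03 the KLF6 difference was -2.11 ± 0.35 at 2 h, which helped to choose the gene and has no test here. It was -1.57 ± 0.35 at 4 h (limma adjusted p = 0.112) and -2.50 ± 0.35 at 8 h (limma adjusted p = 0.000131), where KLF6 was called lower than DMSO. The genes called lower with KI-ARv-03 were 0.0263%, 0.0526% and 0.99% of those tested at 2, 4 and 8 h, and 6.06%, 6.66% and 9.12% had all KI-ARv-03 libraries below all DMSO libraries. Both compounds were compared with the same DMSO libraries, so the parallel of their values is in part built in. The call with KB742 at 4 h was lost when any 1 of 5 of the 6 libraries was left out (log2 differences of -1.89 to -1.45, limma adjusted p up to 0.581), and with the deposited scaling (-1.52, limma adjusted p = 0.0595). With only the groups compared in the fit no KLF6 call against DMSO was left (at 8 h, limma adjusted p = 0.121 for a KB742 difference of -2.40 and 0.108 for a KI-ARv-03 difference of -2.47).

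**Figure D1:**
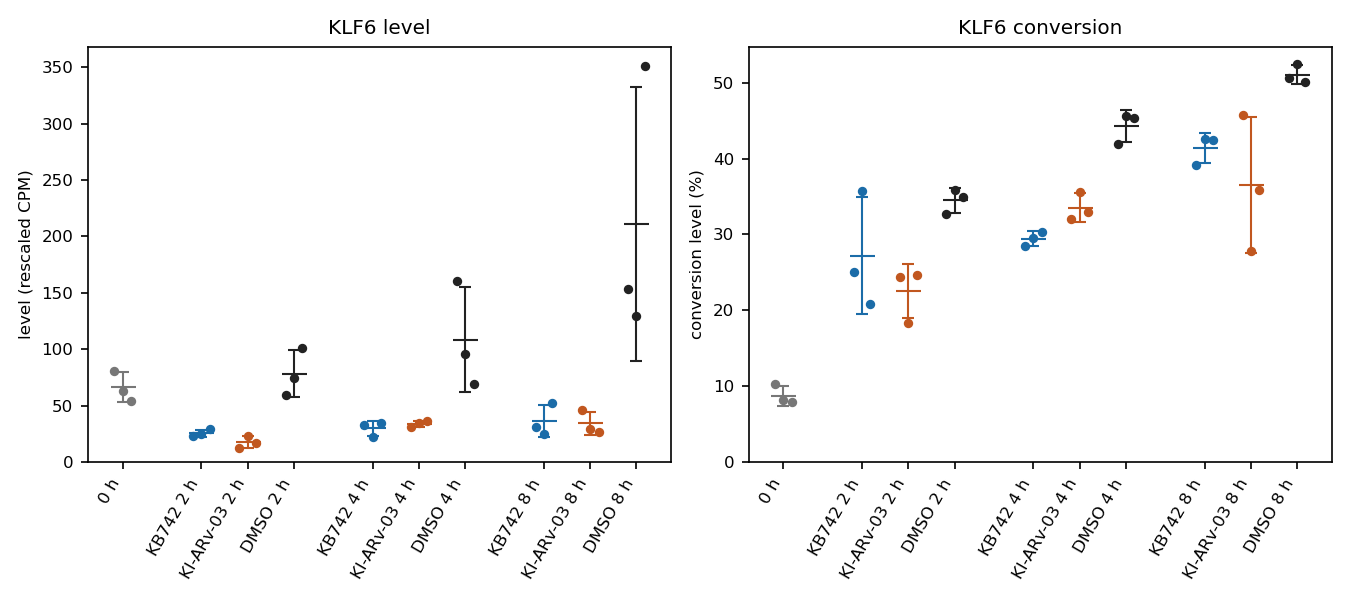
KLF6 level in rescaled CPM (left) and conversion level in percent (right) by library. Each point is a library, and horizontal bars with whiskers are the mean ± SD of 3; times run from 0 h to 8 h, with KB742, KI-ARv-03 and DMSO side by side at each. All points with an inhibitor lie below the DMSO points of the same time in level, and DMSO 8 h replicate 3 stands at 351 CPM.

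The compounds did not differ detectably from each other in KLF6 level at 4 and 8 h. KB742 minus KI-ARv-03 was -0.20 at 4 h (95% interval -0.93 to 0.53) and 0.06 at 8 h (-0.67 to 0.79), with limma adjusted p of 1.0 in each, and 0.55 at 2 h, given without a test. Of all genes, 0% were called between the compounds at any time. These intervals leave room for a difference in either direction. The KB742 effect at 8 h minus that at 2 h was -0.88 ± 0.50 (limma adjusted p = 0.855) and was not called. This test uses the same DMSO 2 h libraries and is not independent of the choice of KLF6 either. The KI-ARv-03 effect at 8 h minus that at 2 h was -0.39, given without a test, and 0.18 without DMSO 8 h replicate 3. Of all tested genes, 0.00877% were called in such a difference with each compound.

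KLF6 averaged 66.2 ± 13.5 CPM (SD, n = 3) at 0 h, then 78.2 ± 21.0, 108 ± 46.9 and 211 ± 122 CPM with DMSO at 2, 4 and 8 h. The log2 differences from 0 h were 0.22 ± 0.35, 0.64 ± 0.35 and 1.54 ± 0.35, and at 8 h all DMSO libraries lay above all 0 h libraries, as they did for 25.3% of tested genes. With the inhibitors it averaged 25.4 ± 3.20, 29.7 ± 6.50 and 36.1 ± 14.0 CPM with KB742 at 2, 4 and 8 h, and 17.5 ± 5.30, 33.7 ± 2.86 and 34.0 ± 10.6 CPM with KI-ARv-03. Without DMSO 8 h replicate 3 the DMSO 8 h difference from 0 h was 1.07. Scaling each library to its total reads gave 0.74 at 8 h in place of 1.54, and shifted the median of all genes by -0.73. Time, new medium, DMSO and longer labelling changed together between 0 h and the later groups and cannot be told apart.

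Conversion of KLF6 was high from the start. It was 10.2%, 8.11% and 7.86% in the 0 h libraries, rank 16 of 10034 genes with a value, where the median gene had 0.28%. DMSO libraries averaged 34.5% ± 1.62, 44.3% ± 2.05 and 51.1% ± 1.25 in order of time, ranks 2, 3 and 4, with medians over genes of 0.57%, 0.859% and 0.886%. KLF6 thus had a higher conversion value than nearly all genes in each of these groups. KB742 libraries averaged 27.2% ± 7.68, 29.4% ± 0.98 and 41.4% ± 1.96 at 2, 4 and 8 h (ranks 2, 8 and 3). KI-ARv-03 libraries averaged 22.5% ± 3.56, 33.5% ± 1.87 and 36.5% ± 8.95 (ranks 3, 1 and 6). All 8 h libraries lay above all 2 h libraries of the same compound, a difference that was not tested. The share of all genes for which this holds was not computed.

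The DMSO conversion values of KLF6 were among those seen when it was chosen, so the tests below are not independent of that choice. Set against DMSO of the same time, KLF6 conversion with KB742 differed by -7.29 percentage points at 2 h, where the libraries overlapped (limma on the arcsine of the square root, adjusted p = 0.224). It was called lower than DMSO with KB742 at 4 h (-14.9 points, limma adjusted p = 0.00159) and at 8 h (-9.69 points, limma adjusted p = 0.0204). The call at 8 h was lost without DMSO replicate 2 (limma adjusted p = 0.0713) or KB742 replicate 1 (limma adjusted p = 0.0726). With KI-ARv-03 the difference was -12.03 points at 2 h, given without a test. Conversion was called lower than DMSO at 4 h (-10.8 points, limma adjusted p = 0.0301) and at 8 h (-14.6 points, limma adjusted p = 0.000893). In these comparisons all inhibitor libraries lay below all DMSO libraries except with KB742 at 2 h, where replicate 2, one of the libraries that stood apart, had 35.7% against 25.1% and 20.8% in the others. Genes called lower in conversion were 0.928%, 17.7% and 34.7% of those tested in the KB742 groups, in order of time, and 0.907%, 7.71% and 36.9% in the KI-ARv-03 groups, so lower conversion at 8 h was shared with many genes. All KB742 libraries lay below all DMSO libraries in 43.9% and 48.5% of genes at 4 and 8 h, and all KI-ARv-03 libraries in 21.7%, 14.9% and 53% at 2, 4 and 8 h. Between the compounds KLF6 conversion differed by 4.73, -4.10 and 4.88 points (KB742 minus KI-ARv-03) at 2, 4 and 8 h, with limma adjusted p of 0.594 at 4 h and 1.0 at 8 h and no test at 2 h, and 0% of all genes were called. The effect at 8 h minus that at 2 h was -2.39 points with KB742, not called, and -2.55 points with KI-ARv-03, given without a test, while 4.83% and 5.61% of genes were called lower in it. On a log2 scale none of the tested KLF6 conversion differences from DMSO passed the threshold (limma adjusted p of 0.430 to 0.802), and the KI-ARv-03 call at 4 h was lost without any 1 of 5 of the 6 libraries (limma adjusted p up to 0.107).

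KLF6 made up less of the reads of the 10 genes with the inhibitors than with DMSO. This share is computed from the KLF6 level given above and is not separate evidence. With KI-ARv-03 at 2 h it uses values that helped to choose the gene. Its share of their summed reads was 22.3% to 34.6% with KB742 and 15.9% to 25.1% with KI-ARv-03 at 2 h, against 53.5% to 57.4% with DMSO. At 4 h it was 40.5% to 50.7% with KB742 and 45.5% to 57.2% with KI-ARv-03, against 61.0% to 76.0% with DMSO. At 8 h it was 45.9% to 53.8% with KB742 and 52.0% to 57.0% with KI-ARv-03, against 80.9% to 92.0% with DMSO. At 0 h the share was 31.0% to 40.5%. The 3 DMSO libraries of each time lay above the inhibitor libraries of that time. These are shares of reads of 3′-end libraries, whose number does not grow with transcript length by design.

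**Figure D2:**
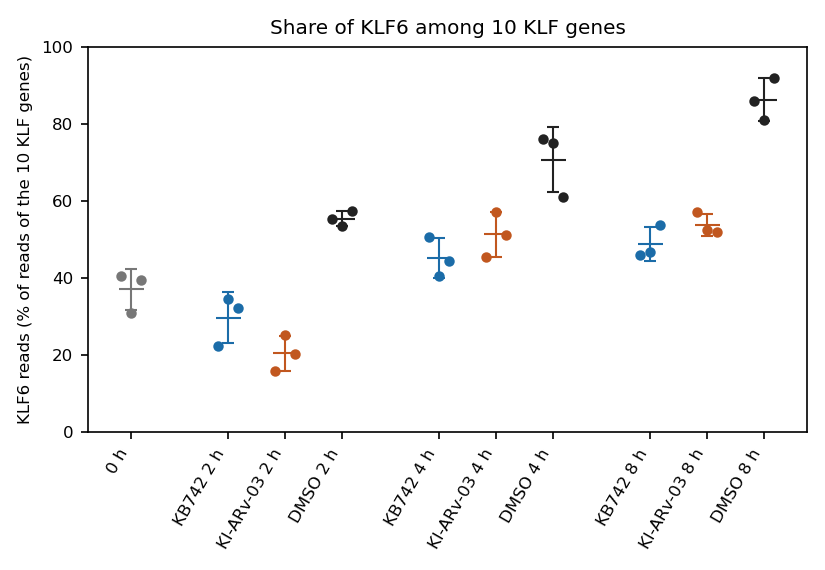
KLF6 reads as a percentage of the reads of the 10 KLF genes, by library. Points are libraries, bars and whiskers the mean ± SD of 3 libraries per group. With DMSO the share is 80.9% to 92.0% at 8 h, while with either inhibitor it is 45.9% to 57.0%. The share is computed from the KLF6 level and is not separate from it.

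The other KLF genes that were called with DMSO against 0 h were all lower. KLF2 and KLF13 had too few reads for the level filter, and KLF4 passed it only through the 0 h libraries, where it was highest, so it has no test against 0 h. Of the 6 others, 0 were called at 2 h, 2 were called lower at 4 h and 4 were called lower at 8 h, and 0 were called higher at any time. At 2 h, 2 of them (KLF5 and KLF11) were lower at an unadjusted limma p under 0.05, edgeR called 0 and DESeq2 1. Genes called lower were 2.61%, 14.6% and 29% of all tested genes at 2, 4 and 8 h with DMSO, and genes called higher 0.0877%, 5.72% and 20%. All DMSO libraries lay below all 0 h libraries in 15.2%, 23.9% and 32.4% of them. These shares include 305 genes that, like KLF4, passed the filter only through 0 h. The medians over the 6 KLF genes were -0.78, -1.17 and -1.66, against -0.01, 0.01 and -0.14 over all tested genes.

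**Figure D3:**
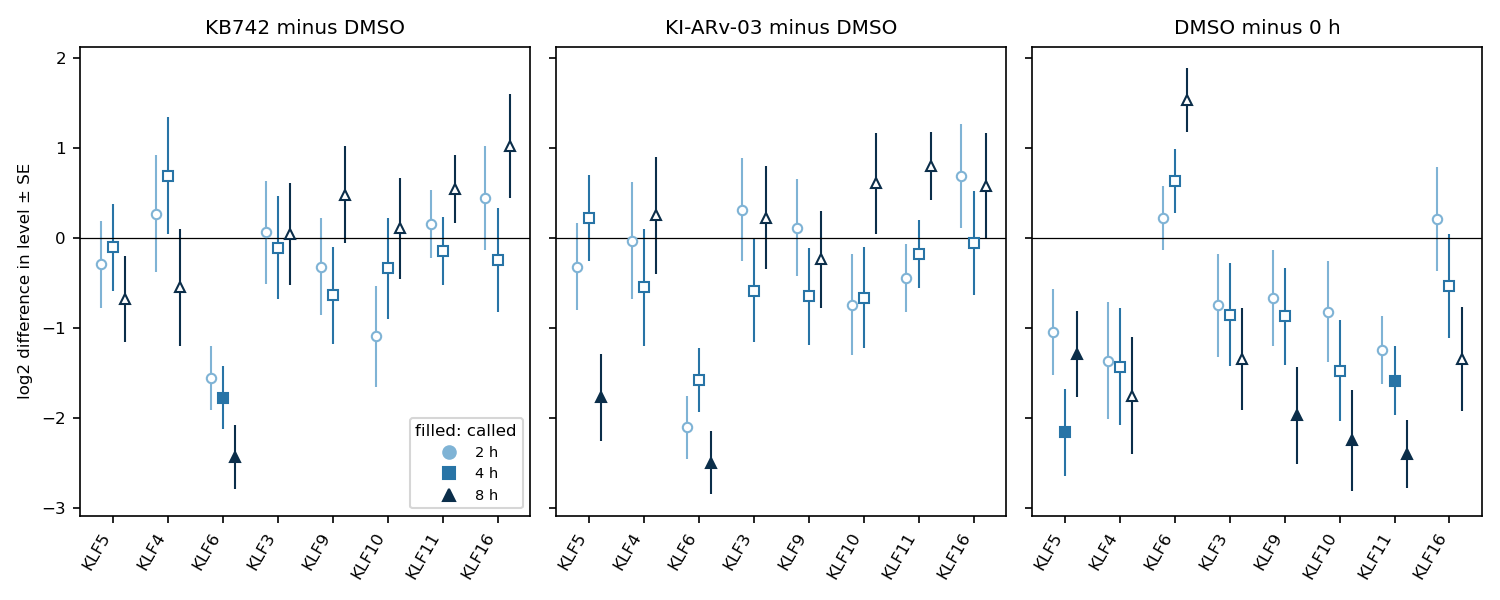
Log2 level differences ± SE of the 8 KLF genes that passed the level filter, for KB742 minus DMSO, KI-ARv-03 minus DMSO and DMSO minus 0 h at 2, 4 and 8 h (3 libraries a group). Filled symbols passed the adjusted threshold of 0.05 in limma, and KLF6 against 0 h and with KI-ARv-03 at 2 h, and KLF4 against 0 h, are unfilled, with no test. In the left and middle panels KLF6 lies lowest at each time, and its KI-ARv-03 value at 2 h helped to choose it. In the right panel KLF6 is the only gene at 8 h above 0, the lowest being KLF11 at -2.40.

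Among the activators, KLF5 was at 6.94, 10.9 and 12.8 CPM with DMSO at 2 h, at 9.32, 2.79 and 2.28 CPM at 4 h and at 4.35, 8.91 and 13.9 CPM at 8 h, against 26.9, 26.3 and 14.1 CPM at 0 h. All DMSO libraries lay below all 0 h libraries. It fell by 2.16 ± 0.48 on the log2 scale at 4 h (limma adjusted p = 0.00218) and by 1.29 ± 0.48 at 8 h (limma adjusted p = 0.0287), where the call was lost without any 1 of 4 of the 6 libraries (limma adjusted p up to 0.177). KLF5 was the only KLF gene besides KLF6 called against DMSO with a compound. At 8 h it was at 2.83, 2.64 and 0.413 CPM with KI-ARv-03, against 4.35, 8.91 and 13.9 CPM with DMSO, on 1 to 7 reads per KI-ARv-03 library. It fell by 1.77 ± 0.48 on the log2 scale (limma adjusted p = 0.0418), a call that was lost with edgeR (adjusted p = 0.0718), with other scalings (limma adjusted p = 0.0979 and 0.0703) and without any 1 of 4 of the 6 libraries (limma adjusted p up to 0.288). With KB742 at 8 h it was at 3.21, 4.02 and 8.16 CPM and differed from DMSO by -0.67 ± 0.48 (limma adjusted p = 0.568). The compounds' difference in KLF5 at 8 h, KB742 minus KI-ARv-03, was 1.10 (95% interval 0.11 to 2.09) and was not called (limma adjusted p = 1.0).

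KLF4, an activator known from pluripotent and epithelial cells, had 28, 56 and 0 reads in the 0 h libraries and at most 12 reads in any other. With DMSO at 8 h it had 2, 1 and 0 reads, and the groups overlapped because 0 h replicate 3 had none. The log2 difference was -1.75, given without a test. KLF2, known from endothelial cells and as a target of MEF2, had 9, 12 and 9 reads in the 0 h libraries and 0 in all 3 DMSO libraries at 8 h. A count of 0 allows up to 3 reads per library, and the gene was not tested. KB742 at 8 h also left KLF2 with 0 reads in each library, and KI-ARv-03 with 1, 0 and 2.

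Of the repressors, KLF11, a TGF-β-inducible SIN3A-binding factor, had the largest decrease. It was at 3.10, 2.71 and 1.85 CPM with DMSO at 8 h, against 18.3, 20.6 and 14.3 CPM at 0 h, with no overlap at any of the 3 times. Its log2 difference was -1.25 ± 0.38 at 2 h (limma adjusted p = 0.0809), and it fell by 1.58 ± 0.38 at 4 h (limma adjusted p = 0.0039) and by 2.40 ± 0.38 at 8 h (limma adjusted p = 1.54e-05). KLF10, its TGF-β-inducible relative, was at 3.10, 1.55 and 0.924 CPM with DMSO at 8 h, against 9.15, 11.8 and 15.6 CPM at 0 h. It fell by 2.25 ± 0.56 on the log2 scale at 8 h (limma adjusted p = 0.00187). The KLF10 transcript with the most reads is a non-coding record of the gene, and reads shared with its coding transcripts cannot be told apart here.

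KLF9, a target of glucocorticoid and thyroid hormone receptors, was at 4.97, 9.30 and 2.77 CPM with DMSO at 8 h, against 26.5, 34.7 and 13.3 CPM at 0 h, and the groups did not overlap. It fell by 1.97 ± 0.54 on the log2 scale (limma adjusted p = 0.00382). KLF3 was at 1.86, 5.04 and 4.62 CPM with DMSO at 8 h, against 14.6, 27.1 and 2.60 CPM at 0 h, and KLF16 at 5.59, 1.55 and 5.55 CPM, against 10.98, 5.92 and 20.8 CPM. Neither was called (-1.34 ± 0.57, limma adjusted p = 0.0531, and -1.35 ± 0.58, limma adjusted p = 0.0557). KLF13 had 0 to 8 reads per library, 74 in all.

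**Figure D4:**
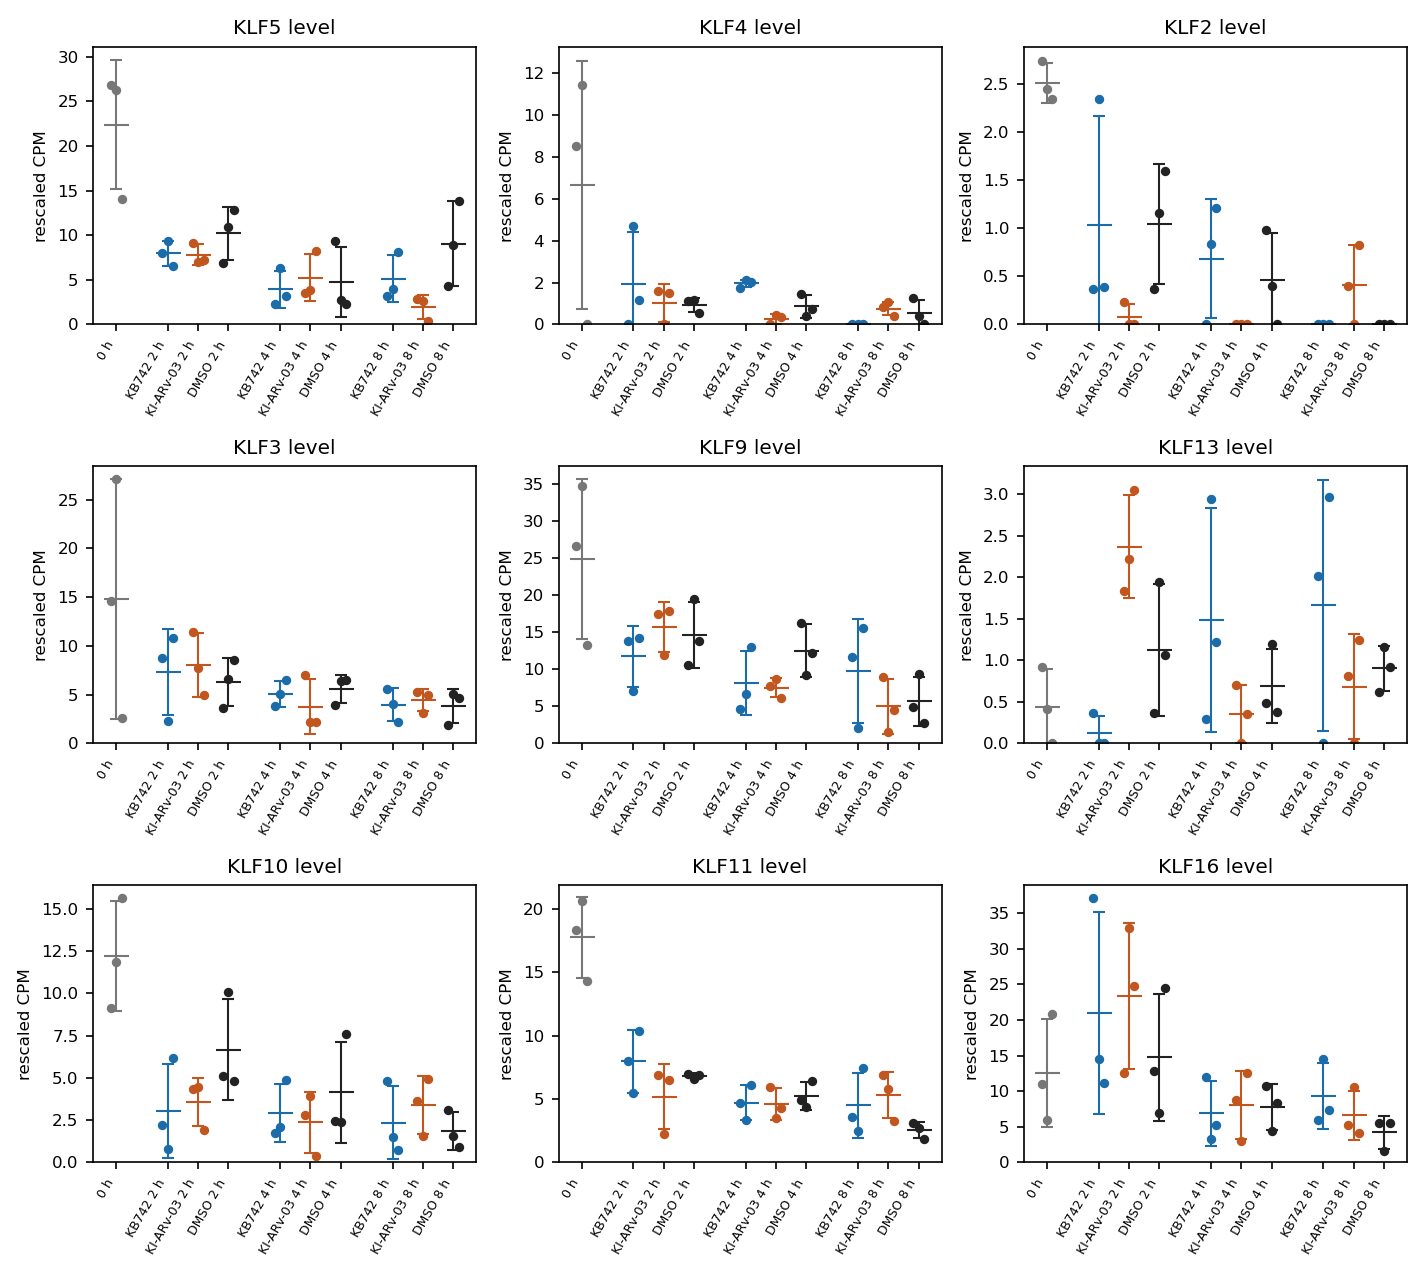
Level in rescaled CPM of the 9 KLF genes other than KLF6, one panel a gene, by library. Points are libraries, bars and whiskers the mean ± SD of 3; times run from 0 h to 8 h with KB742, KI-ARv-03 and DMSO side by side at each. KLF5, KLF9, KLF10 and KLF11 are highest in the 0 h group, and the inhibitor and DMSO points of a time overlap in most panels.

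Few differences between an inhibitor and DMSO were called in these genes. Apart from KLF5 with KI-ARv-03 at 8 h, 0 of the 7 were called against DMSO with either compound at any time by limma. At an unadjusted p under 0.05 there were 0 with KB742, and with KI-ARv-03 also KLF11, higher at 8 h. With KI-ARv-03 edgeR called 0 and DESeq2 called 1, and with KB742 both called 0. The differences of the 7 genes from DMSO at 8 h were -0.67 to 1.02 with KB742 and -1.77 to 0.80 with KI-ARv-03. For KLF11 at 8 h the level was 3.62, 2.51 and 7.42 CPM with KB742 and 6.88, 5.81 and 3.31 CPM with KI-ARv-03, against 3.10, 2.71 and 1.85 CPM with DMSO. The KI-ARv-03 libraries lay above the DMSO libraries, as in 12.2% of tested genes, and the difference was not called. With KI-ARv-03, KLF10 at 2 h (-0.74) and KLF9 at 4 h (-0.65) lay below DMSO without overlap, as did 6.06% and 6.66% of tested genes. With KB742, KLF4 at 4 h (0.70, on 5 to 6 reads per library) and KLF16 at 8 h (1.02) lay above. The share of all genes above with KB742 is not given here. None of these was called. The median 95% half-width of a log2 difference was 0.865 over all tested genes, and for these 7 genes it ran from 0.78 (KLF11) to 1.34 (KLF4). With few reads smaller differences were not detectable at this depth. These widths are unadjusted, and larger differences could also miss the adjusted threshold, as did -1.57 for KLF6 with KI-ARv-03 at 4 h.

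Conversion with DMSO could be tested against 0 h in 3 of the others. KLF3 and KLF11 had no DMSO library with at least 20 reads. KLF3 averaged 7.06% with KI-ARv-03 and 6.04% with KB742 at 2 h, against 1.50% at 0 h (2 libraries each). KLF11 averaged 6.44% with KB742 at 2 h (2 libraries), against 1.14% at 0 h (3 libraries). These differences from 0 h were not tested. KLF9 conversion was 4.57%, 12.9% and 12.7% with DMSO at 2 h and 23.1%, 19.1% and 18.1% at 4 h, against 0.896%, 1.81% and 0% at 0 h. It rose at 2 h (limma adjusted p = 0.00237) and at 4 h (limma adjusted p = 1.1e-06). KLF5 conversion was 10.6% and 15.9% in the 2 DMSO libraries at 2 h with at least 20 reads, against 0.565%, 0.611% and 0% at 0 h, and rose (limma adjusted p = 0.000338). Genes called higher in conversion with DMSO were 8.93%, 34.9% and 42.9% of those tested at 2, 4 and 8 h. KLF16 conversion was 1.25% and 3.37% with DMSO at 4 h, against 0.548%, 0% and 0.971% at 0 h, and was not called (limma adjusted p = 0.119). KLF9 with the inhibitors was at 2.61% ± 0.566 with KI-ARv-03 (n = 3) and 8.42% and 3.92% with KB742 at 2 h, against 10.1% ± 4.77 with DMSO (n = 3), and was not called (limma adjusted p = 0.134 with KI-ARv-03 and 0.606 with KB742). With KI-ARv-03 at 4 h KLF9 differed from DMSO by -10.1 points and lay below it, as did 14.9% of genes (limma adjusted p = 0.0892). KLF5 with KB742 at 2 h differed by -7.83 points (limma adjusted p = 0.252). KLF16 at 2 h differed by 0.468 points with KB742 and 0.247 with KI-ARv-03. None of these was called. With 8 h of DMSO only KLF6 had enough reads for a test.

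Of the 16 other KLF and SP genes listed, 8 passed the level filter, SP8 only through the 0 h libraries. Of the other 7, 0, 4 and 5 were called lower at 2, 4 and 8 h with DMSO against 0 h, where 2.61%, 14.6% and 29% of all tested genes were, and 0 were called higher. At 2 h, 3 of them were lower at an unadjusted limma p under 0.05, and edgeR and DESeq2 called 0. KLF7, expressed widely and close to KLF6 in sequence, fell at 4 and 8 h to 7.18 ± 1.03 and 7.16 ± 5.81 CPM with DMSO, against 26.8 ± 2.20 CPM at 0 h (limma adjusted p = 0.00226 and 0.000216). KLF15, SP3 and SP4 fell at 4 and 8 h, and SP2 at 8 h. None of the 8 was called against DMSO with KB742 or KI-ARv-03 at any time by limma, edgeR or DESeq2. Over the 3 times, 0 comparisons with KB742 and 4 with KI-ARv-03 (KLF15, SP1, SP2 and SP3) had an unadjusted limma p under 0.05. The medians of their differences from DMSO at 8 h were -0.08 for KB742, where that of all tested genes was -0.03, and 0.01 for KI-ARv-03, where it was 0.00. SP1, which shares binding sites with many KLF proteins, was lower in conversion with KB742 than with DMSO at 4 h. It was at 5.02% ± 1.21, against 11.7% ± 1.03 with DMSO (limma adjusted p = 0.0288). The call was lost without any 1 of 4 of the 6 libraries and with a minimum of 1 read.

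Of 26 cofactors and regulators of KLF proteins, 26, 25 and 26 were tested at 2, 4 and 8 h with DMSO against 0 h, and 4, 9 and 15 were called lower and 0, 1 and 2 higher. Over all tested genes 2.61%, 14.6% and 29% were called lower and 0.0877%, 5.72% and 20% higher. The count at 2 h was 0 to 2 when any 1 library was left out. EP300, the acetyltransferase p300 used by the activators, fell at 8 h to 3.90 ± 0.319 CPM with DMSO, against 85.1 ± 24.2 CPM at 0 h (log2 difference -4.09 ± 0.29, limma adjusted p = 1.12e-10). SIN3A, the corepressor of the KLF9 and KLF11 group, fell as well (-3.63 ± 0.37, limma adjusted p = 4.66e-08). EGR1, an immediate early zinc-finger factor, rose to 53.9 ± 20.4 CPM with DMSO at 8 h, against 16.8 ± 12.9 CPM at 0 h (2.04 ± 0.52, limma adjusted p = 0.00239), and HDAC1 rose too.

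Against DMSO, 3 of these 26 were called higher with KB742 at 8 h and 2 with KI-ARv-03, and 0 lower. Genes called higher were 1.24% and 1.93% of all tested genes. MEF2A, an activator of KLF2 in other cells, was at 10.99 ± 3.59 CPM with KB742 and 11.4 ± 2.58 CPM with KI-ARv-03, against 4.05 ± 1.16 CPM with DMSO (1.23 ± 0.32, limma adjusted p = 0.039, and 1.30 ± 0.32, limma adjusted p = 0.0229). WWP1, a ubiquitin ligase of KLF5, was at 15.2 ± 8.10 CPM with KB742 and 15.2 ± 8.91 CPM with KI-ARv-03, against 4.03 ± 3.89 CPM with DMSO (2.06 ± 0.55, limma adjusted p = 0.0489, and 1.98 ± 0.55, limma adjusted p = 0.046). EP300 was at 9.51 ± 1.41 CPM with KB742, against 3.90 ± 0.319 CPM with DMSO (1.10 ± 0.29, limma adjusted p = 0.0481). These calls were near the threshold: with edgeR those of EP300, MEF2A and WWP1 with KB742 were lost (adjusted p = 0.101, 0.0707 and 0.151), as was WWP1 with KI-ARv-03 (0.109). Without DMSO 8 h replicate 3 the WWP1 differences were 1.18 and 1.13 and the MEF2A ones 1.08 and 1.18, and no call remained.

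In conversion, 1 of 15 testable cofactors at 4 h and 2 of 7 at 8 h were called lower than DMSO in KB742 libraries, where 17.7% and 34.7% of all genes were. In KI-ARv-03 libraries 1 of 15 and 3 of 7 were, against 7.71% and 36.9% of all genes. CTBP2, a corepressor that KLF3 binds, fell at 4 h to 1.66% ± 0.337 with KB742, against 5.97% ± 2.00 with DMSO (limma adjusted p = 0.0119). With KI-ARv-03 it fell to 2.19% ± 1.45 at 4 h (limma adjusted p = 0.0432), where its libraries overlapped those of DMSO, and at 8 h to 0.726% ± 0.188, against 5.496% ± 3.14 with DMSO (limma adjusted p = 0.00069). At 8 h CTBP1, its close relative, fell to 0.0523% ± 0.0813 with KB742 and to 0.157% ± 0.0824 with KI-ARv-03, against 0.771% ± 0.0793 with DMSO (limma adjusted p = 0.001 and 0.0202). HDAC2, a histone deacetylase of the SIN3A complex, fell to 0.162% ± 0.091 in KB742 libraries at 8 h, against 0.669% ± 0.231 in DMSO libraries (limma adjusted p = 0.0478). SMAD4, which carries TGF-β signals, fell to 0.528% ± 0.657 in KI-ARv-03 libraries at 8 h, against 5.83% ± 3.26 in DMSO libraries (limma adjusted p = 0.00025). Each of these means is of 3 libraries. Leaving out 1 library ended the CTBP2 call with KB742 at 4 h (limma adjusted p up to 0.0645), that with KI-ARv-03 at 4 h (up to 0.236), the CTBP1 call with KI-ARv-03 (up to 0.0678) and the HDAC2 call (up to 0.168).

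Of 15 reported KLF target genes, 10 could be tested for level and 0 were called against DMSO with either compound at any time by limma, edgeR or DESeq2. Over the 3 times, 2 comparisons with KB742 and 3 with KI-ARv-03 had an unadjusted limma p under 0.05. With DMSO against 0 h, 9 were tested, and 1, 2 and 3 were called lower and 0, 1 and 2 higher at 2, 4 and 8 h, beside 2.61%, 14.6% and 29% of all tested genes lower and 0.0877%, 5.72% and 20% higher. CEBPA passed the filter only through 0 h. CEBPB, a regulator of fat cell differentiation, fell at each time. In conversion at 8 h, 4 of 5 testable targets were called lower than DMSO in KB742 libraries, as were 34.7% of all genes, and 5 of 6 in KI-ARv-03 libraries, as were 36.9% of all genes. CDKN1A, the cell cycle inhibitor p21 and a reported KLF6 and KLF4 target, stood at 3.64% ± 2.08 with KB742 and 3.39% ± 0.553 with KI-ARv-03 at 8 h, against 15.9% ± 1.79 with DMSO, so its conversion fell (limma adjusted p = 8.51e-08 and 1.27e-07). Its level was 32.4 ± 2.57 CPM with KB742 and 25.02 ± 11.9 CPM with KI-ARv-03, against 24.5 ± 9.01 CPM with DMSO. CCND1, cyclin D1, fell in conversion to 1.34% ± 0.313 in KB742 libraries and 1.48% ± 0.404 in KI-ARv-03 libraries, against 13.5% ± 3.21 in DMSO libraries (limma adjusted p = 2.66e-14 and 2.17e-12). CDKN1A and CCND1 also fell in conversion at 4 h with each compound, and on the log2 scale the CDKN1A calls at 4 h were lost (limma adjusted p = 0.107 for KB742, 0.218 for KI-ARv-03). CCNB1, cyclin B1, fell at 8 h to 0.849% ± 0.47 in KB742 libraries and 0.828% ± 0.29 in KI-ARv-03 libraries, against 5.60% ± 1.15 in DMSO libraries (limma adjusted p = 1.37e-06 and 2.18e-06). NOS3, the endothelial nitric oxide synthase, fell to 0.33% ± 0.183 in KB742 libraries and 0.166% ± 0.119 in KI-ARv-03 libraries, against 2.04% ± 1.36 in DMSO libraries (limma adjusted p = 0.000799 and 8.48e-05). SMAD7, an inhibitor of TGF-β signalling, fell to 27.4% in KI-ARv-03 libraries, against 36.8% in DMSO libraries (2 libraries each, limma adjusted p = 0.0216), a call lost on the log2 scale (limma adjusted p = 0.757). The conversion of EGR1 was 36.6% ± 5.59 in KB742 libraries and 35.4% ± 4.70 in KI-ARv-03 libraries, against 33.8% ± 2.88 in DMSO libraries, and was not called.

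Across the 30 libraries, the 5 tested genes whose log2 level ran most like KLF6 were C1orf35 (Pearson r = 0.92), METTL18 (0.91), ZNF3 (0.88), COX19 (0.84) and HIC2 (0.83). The libraries share groups and differ in depth, and r is given as a description. C1orf35 averaged 127 CPM with KB742 and 111 CPM with KI-ARv-03 at 8 h, against 546 CPM with DMSO at 8 h and 188 CPM at 0 h. ZNF3 averaged 28.4 and 29.3 CPM with the 2 compounds at 8 h, against 212 CPM with DMSO at 8 h and 48.7 CPM at 0 h. Of the other KLF genes, KLF5 had the highest r with KLF6 at 0.31, rank 1187 of 11408, and KLF16 the lowest at -0.34.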

How the data were processed

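The deposited table gives a CPM and a conversion value per transcript and library, on hg19 per the submitters' processing notes. The aligner and the conversion caller are not named there or in the labels (not given in the sources used here). The authors' CPM are a signal from which whole read counts were recovered (100% of values within 0.05 of a whole number). Their conversion values are a fraction, deposited without its denominator, and the ERCC spike-ins named in the labels' protocols were not used here. Members and gene lists were chosen with earlier results of these data known. Per gene, the transcript with the highest summed CPM was used. Named were all members, the list genes called against DMSO, and the 5 genes most correlated with KLF6. KLF7, KLF15, SP2, SP3, SP4, SP8, SIN3A, CEBPA, EGR1, HDAC1 and CEBPB, and EP300 against 0 h, were named after their values were seen. Levels were tested with limma 3.58.1 (trend) on log2(CPM + 1) after TMM rescaling (edgeR 4.0.16), in one fit of 10 groups over the 11409 genes kept by edgeR's filter (minimum count 10), two-sided, with Benjamini-Hochberg adjustment. Genes that passed the filter only through the group in which they were highest were left out of the tests and list counts of that group. The pseudocount understates changes of low genes. For conversion, limma was run on arcsine-square-root values, with values behind fewer than 20 reads set to missing and at least 2 values per group. DESeq2 1.42.0, R 4.3.3 and Python 3.11.15 were also used. Scripts were tested on simulated data. Precision is limited by depth: the 10 KLF genes had 57 to 4346 reads over all libraries. Alternatives were other scalings, pseudocount, filters, tools, left-out libraries and a replicate block. The 95% intervals are limma's, from the spread between libraries, and the floor of 3 reads covers counting error only.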

Additional observations from a re-analysis of the deposited data

Results flagged for a closer look

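The differences below, all in genes reported as KLF targets, are given because a test of the difference between times passed the threshold. Each is the effect of a compound against DMSO on the conversion level at 8 h minus that at 2 h, in percentage points, with the adjusted p of the interaction term in limma. For CCND1, cyclin D1, it was -10.9 points with KB742 (limma adjusted p = 1.35e-07) and -10.7 points with KI-ARv-03 (limma adjusted p = 3.97e-07). For CDKN1A, the cell cycle inhibitor p21, it was -11.2 points with KB742 (limma adjusted p = 0.00364) and -11.0 points with KI-ARv-03 (limma adjusted p = 0.00573). For CCNB1, cyclin B1, it was -4.33 points with KB742 (limma adjusted p = 0.00836) and -4.06 points with KI-ARv-03 (limma adjusted p = 0.0271). In each the conversion was further below DMSO at 8 h than at 2 h. Over all genes tested, 4.83% with KB742 and 5.61% with KI-ARv-03 had such an interaction in this direction. Both compounds share the DMSO libraries. No KLF gene tested in this way passed in level or conversion.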

How the results depend on the processing

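KLF6 stayed below DMSO in level with both compounds at all times under each alternative run. With only the compared groups in the fit its log2 differences were -1.76 (4 h) and -2.40 (8 h) with KB742 and -2.47 (8 h) with KI-ARv-03, none past the threshold. With the deposited scaling KB742 passed at 2 h (-1.67) and not at 4 h (-1.52), and with DESeq2 KI-ARv-03 passed at 4 h (-1.68). The KB742 test at 2 h shares the DMSO libraries that helped to choose KLF6. Scaling to total reads and the deposited scaling gave 0.74 and 0.79 for DMSO at 8 h against 0 h, in place of 1.54. Leaving out single libraries gave KLF6 log2 differences of -2.05 to -1.45 (KB742, 4 h), -0.23 to 0.29 (KB742 minus KI-ARv-03, 8 h; turned to -0.23, -0.03 and -0.08) and -0.62 to 0.18 (KI-ARv-03, 8 h minus 2 h, with no test). KLF6 conversion on the log2 scale differed by -0.59 (4 h) and -0.30 (8 h) with KB742 and by -0.40 (4 h) and -0.51 (8 h) with KI-ARv-03, none past the threshold. With a minimum of 1 read it differed by -0.111 (arcsine scale) with KI-ARv-03 at 4 h, where it no longer passed. Leaving out libraries gave -0.103 to -0.0858 (KB742, 8 h) and -0.123 to -0.103 (KI-ARv-03, 4 h). The change of its KB742 effect between 2 and 8 h turned sign on the log2 scale (0.0734), without the libraries that stood apart (0.0313, a setting chosen after seeing the data), and without single libraries (-0.0521 to 0.0313).
Counts of called genes moved as follows, with the count in the fits described above first and with no comparison of KLF6 that has no test. In level, DMSO at 2 h against 0 h gave 0 KLF genes (1 with DESeq2, either other scaling or without the libraries apart), 0 other KLF and SP genes (1 with no filter), 4 cofactors (1 or 2 with a pseudocount of 0.25, no filter, compared groups alone or without the libraries apart) and 1 target (0 with a pseudocount of 0.25). At 4 h it gave 3 targets (1 without the libraries apart). KB742 gave 0, 1 and 1 KLF genes at 2, 4 and 8 h (1 and 0 at 2 and 4 h with the deposited scaling, 0 at 4 and 8 h with compared groups alone), and KI-ARv-03 0 and 2 at 4 and 8 h (1 at 4 h with DESeq2, and at 8 h 0 with compared groups alone and 1 with edgeR, no filter, either other scaling or the block). Other KLF and SP genes with KI-ARv-03 at 2 h were 0 (1 with no filter). Cofactors at 8 h were 3 with KB742 (0 with edgeR, DESeq2, no filter, compared groups alone or the block, 1 with the deposited scaling or summed transcripts) and 2 with KI-ARv-03 (0 or 1). In conversion with a minimum of 1 read, DMSO at 4 and 8 h gave 4 and 4 KLF genes, 4 and 4 other KLF and SP genes and 11 and 13 cofactors (1, 0, 1, 0, 7 and 4 otherwise), KB742 at 8 h 4, 3 and 6 (1, 0 and 2), KI-ARv-03 at 8 h 3, 4 and 10 (1, 0 and 3), KB742 at 4 h 3 cofactors and 0 other KLF and SP genes (1 and 1), and KI-ARv-03 at 4 h 0 KLF genes and 0 cofactors (1 and 1). A minimum of 50 reads gave 0 to 3 in place of 1 to 5, and the log2 scale 0 or 1 in place of 1 to 3. With compared groups alone DMSO at 2 h gave 5 cofactors (3), KB742 1 target at 2 h (0) and 3 cofactors at 4 h (1), and KI-ARv-03 at 2 h 1 KLF gene and 2 targets (0 and 0). Without the libraries apart cofactors were 3 and 4 with KB742 at 4 and 8 h and 3 with KI-ARv-03 at 4 h (1, 2 and 1), with 1 target with KI-ARv-03 at 2 h and 1 other KLF or SP gene at 4 h (0 and 0). Leaving out single libraries gave, in level, 2 to 3 and 3 to 5 KLF genes with DMSO at 4 and 8 h, 0 to 1 with KB742 at 4 h, 1 to 2 with KI-ARv-03 at 8 h, 1 to 3 other KLF and SP genes and 6 to 10 cofactors with DMSO at 4 h, 0 to 2 cofactors with DMSO at 2 h and with either compound at 8 h and 0 to 2 targets with DMSO at 2 h, and in conversion 0 to 1 KLF genes with KB742 at 8 h and KI-ARv-03 at 4 h, 4 to 7 cofactors at 4 h and 3 to 5 targets at 8 h with DMSO, 1 to 5 cofactors with KB742 at 8 h and 0 to 3 with KI-ARv-03 at 4 h.
Over all groups replicate numbers showed no general pairing: same-numbered libraries had a median correlation of deviations of -0.00674 (-0.587 to 0.613) and others 0.0107 (-0.675 to 0.662). Pairing within some of the groups was not tested. With the replicate block KLF5 with KI-ARv-03 at 8 h (-1.77, limma adjusted p = 0.056) and the EP300, MEF2A and WWP1 calls with KB742 and the WWP1 call with KI-ARv-03 were lost. Over all genes, the number called in level ranged over settings from 78 to 725 (308 reported) for DMSO at 2 h, 0 to 5 (3), 0 to 25 (13) and 0 to 397 (209) for KB742 at 2, 4 and 8 h, and 0 to 7 (3), 7 to 21 (8) and 3 to 465 (333) for KI-ARv-03, and in conversion from 385 to 1189 (745) and 1843 to 4419 (2780) for DMSO at 2 and 8 h, 7 to 86 (75), 516 to 2096 (1349) and 1444 to 3312 (2162) for KB742, and 0 to 397 (74), 27 to 1638 (592) and 1578 to 3548 (2325) for KI-ARv-03. Leaving out 1 library gave 58 to 215 for KB742 and 78 to 598 for KI-ARv-03 at 8 h in level, and 605 to 1194 for KB742 and 235 to 1411 for KI-ARv-03 at 4 h in conversion. The cause of these changes was not tested. KLF2, KLF13 and the conversion of most KLF genes at 8 h are limited by reads.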
